A study of Mus musculus with 35 samples.

Results

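The regions described here are 3486 stretches of the mouse genome that carried H3K4me1, the histone mark found at enhancers and around promoters, in every HSPC library and in neither neutrophil library. Peaks of the 10 H3K4me1 libraries were merged into 199848 regions, and those touching an H3K4me3 peak of any library were dropped, which left 138205 distal regions. The 3486 had a peak in all 8 HSPC libraries and none in the 2 neutrophil libraries, and made up 2.52% of the distal regions. They are called HSPC-only regions below. They were thus chosen by the measured presence and absence of H3K4me1 and the absence of H3K4me3, and those marks inside the regions are given as a description with no test. H3K27ac took no part in the choice. "Only" covers these 5 groups, since neutrophils were the single mature cell type profiled, and a missing peak may be a weak signal below the caller's threshold.

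The 5 groups of C57BL/6 mouse bone marrow were WT neutrophils, and HSPC of DM, Npm1c, Flt3-ITD and WT mice, with 2 biological replicates for each group and mark. HSPC (hematopoietic stem and progenitor cells) were the lineage-negative cells left by a depletion kit, and neutrophils came from a neutrophil isolation kit, both after lysis of red blood cells. By their names, Npm1c is the cytoplasmic mutant form of nucleophosmin and Flt3-ITD an internal tandem duplication in the cytokine receptor Flt3, both found in acute myeloid leukaemia. The labels do not spell out DM, and give no age, no promoter driving an allele and no number of pooled animals. Of the 8 HSPC marker genes, 6 had no H3K27ac in either neutrophil library. The other 2 brought the sum over the 8 to 7.27 and 7.31 kb in neutrophils, against 19.2 to 47.1 kb in mutant and 9.76 and 9.54 kb in WT HSPC. The 11 neutrophil markers together had 31.7 to 33.7 kb of H3K27ac in neutrophil libraries and 1.41 to 5.66 kb in HSPC libraries. Lineage-negative marrow is a mixture: the 6 erythroid markers held 2.05 to 46.9 kb across HSPC libraries. In such bulk material fewer cells carrying a mark and less of the mark per cell cannot be told apart.

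H3K4me1 is laid down by the KMT2C and KMT2D methyltransferases at enhancers that are poised or in use. H3K27ac, written by p300 and CBP, separates those in use from those only marked, and H3K4me3 marks promoters. As blood progenitors mature, enhancers of other lineages lose their marks while those of the chosen lineage gain them.

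The HSPC-only regions covered 5.79 Mb, with a median width of 1476 bp (1040 to 5513 bp). Each HSPC library had 3556 to 3622 H3K4me1 peaks in them. They were 19.4% of the 17961 distal regions marked in all 8 HSPC libraries, of which 12997 were also marked in both neutrophil libraries and 1478 in 1 of them. Just outside the rule lay 3183 regions with peaks in 7 HSPC libraries and no neutrophil library. The library without a peak was Npm1c replicate 1 for 1389 of these and DM replicate 1 for 732. The mark H3K27ac reached 0.283% of these in neutrophils and 1.08% in HSPC on average, and 1.93% and 3.53% of those with 1 neutrophil peak.

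The median distance of the regions to an H3K4me3 peak of any library was 7.10 kb, against 5.73 kb for all other distal regions and 2.96 kb for those marked in all 10 libraries. Within 5 kb of one lay 40.05% of the HSPC-only regions and 46.3% of all other distal regions. The 10818 regions marked in both neutrophil libraries and no HSPC library lay at 7.50 kb. A protein-coding gene span held 56.7% of the HSPC-only regions, and 341 (9.78%) lay over 100 kb from any gene span, against 4.89% of the regions marked in all 10 libraries. The nearest neutrophil H3K4me1 peak was a median of 4.97 kb away. It lay within 1 kb for 521 regions and over 20 kb away for 590 (16.9%).

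**Figure D1:**
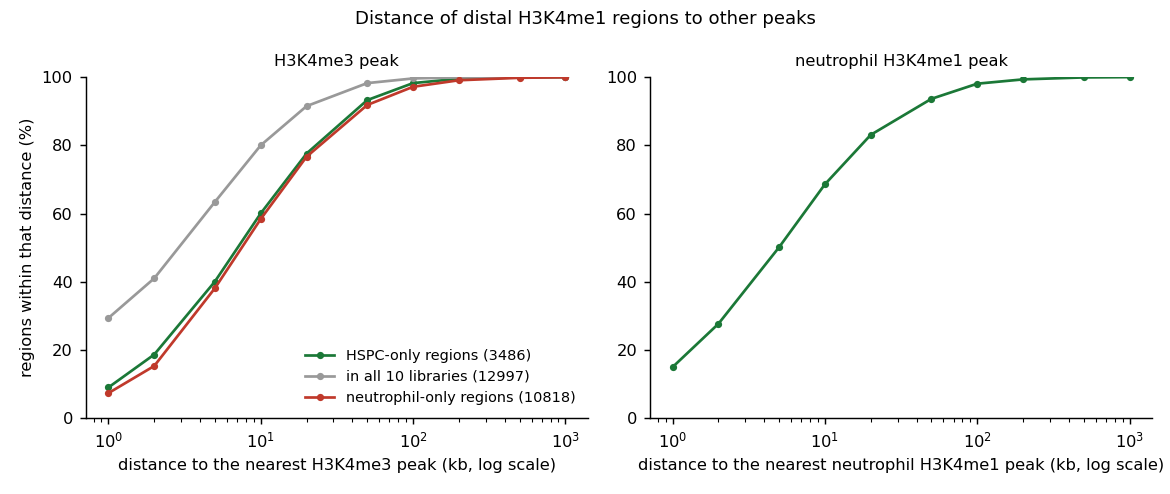
Cumulative percentage of regions (y axis) within a distance (x axis, kb, log scale) of the nearest H3K4me3 peak (left, 3 classes of distal region) and of the nearest neutrophil H3K4me1 peak (right, HSPC-only regions). The HSPC-only curve runs beside the neutrophil-only curve, below that of the regions marked in all 10 libraries, and 50.1% of HSPC-only regions have a neutrophil H3K4me1 peak within 5 kb.

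Most HSPC-only regions carried no H3K27ac, like most distal regions. In 3317 of the 3486 (95.2%) no library had an H3K27ac peak, against 95.1% of all other distal regions. The remaining 169 had one in at least 1 library. By library, 23 and 25 regions were acetylated in neutrophils. In HSPC the counts were 81 and 47 in DM, 101 and 82 in Npm1c, 43 and 55 in Flt3-ITD, and 48 and 49 in WT. Both neutrophil libraries lay below all 8 HSPC libraries. Pooling the HSPC libraries mixes genotypes, which the permutation tests of neutrophils against HSPC treat as alike. In WT HSPC alone the share averaged 1.39 ± 0.0203% (SD, n = 2). It averaged 0.688 ± 0.0406% in neutrophils (SD, n = 2) and 1.81 ± 0.620% in all HSPC (SD, n = 8). The difference of -1.13 percentage points did not pass the two-sided exact permutation test over libraries (p = 0.0667; the smallest possible is 0.0222). The neutrophil lists held 25554 and 26437 H3K27ac peaks, inside the range of 21709 to 30150 of the HSPC lists. With all lists set to the length of the shortest, keeping the widest peaks, the difference was -0.868 points and p was 0.0222.

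Regions marked in all 10 libraries were acetylated far more often, in 13.8 ± 0.277% of cases in neutrophils and 16.4 ± 2.62% in HSPC. Set against them within each library, HSPC-only regions were acetylated 4.86% and 5.14% as often in neutrophils, and 7.61% to 15.6% as often in HSPC. On the log2 scale this ratio averaged -4.32 ± 0.0560 in neutrophils and -3.23 ± 0.309 in HSPC (SD, n = 2 and 8). The log2 difference of -1.09, a test added after seeing the data, had an exact permutation p of 0.0222, the smallest possible. Set against all other distal regions instead, the share of HSPC-only regions differed by -1.39 percentage points in neutrophils and by -0.388 in HSPC (difference -0.999; exact permutation p = 0.0222, the smallest possible). The other regions include the neutrophil-only ones. Leaving out either neutrophil library gave the smallest p then possible, 0.111, for both.

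Where both neutrophil libraries had H3K27ac on these regions, it was nearly always beside an H3K4me3 peak. Of the 21 regions acetylated in both neutrophil libraries, 20 lay within 1 kb of an H3K4me3 peak. So did 16 of the 17 acetylated in all 8 HSPC libraries, and both sets hold the 11 acetylated in all 10 libraries. The same nearness held for 46.2% of the 169 regions acetylated in at least 1 library and 7.08% of those never acetylated. Of the 2836 regions over 2 kb from any H3K4me3 peak, no region was acetylated in either neutrophil library. The HSPC libraries had 28 and 11 such regions in DM, 37 and 22 in Npm1c, 8 and 12 in Flt3-ITD, and 9 and 9 in WT. Every HSPC library was above both neutrophil libraries, and the mean share was 0% in neutrophils and 0.599 ± 0.381% in HSPC (exact permutation p = 0.0667, with this cut-off chosen after seeing the data). Regions marked in all 10 libraries and as far from H3K4me3 went the other way, with 2.41 ± 0.304% acetylated in neutrophils and 1.66 ± 1.01% in HSPC, groups that overlapped. Neutrophil-only regions as far from H3K4me3 were acetylated in 0.551 ± 0.0849% of cases in neutrophils.

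**Figure D2:**
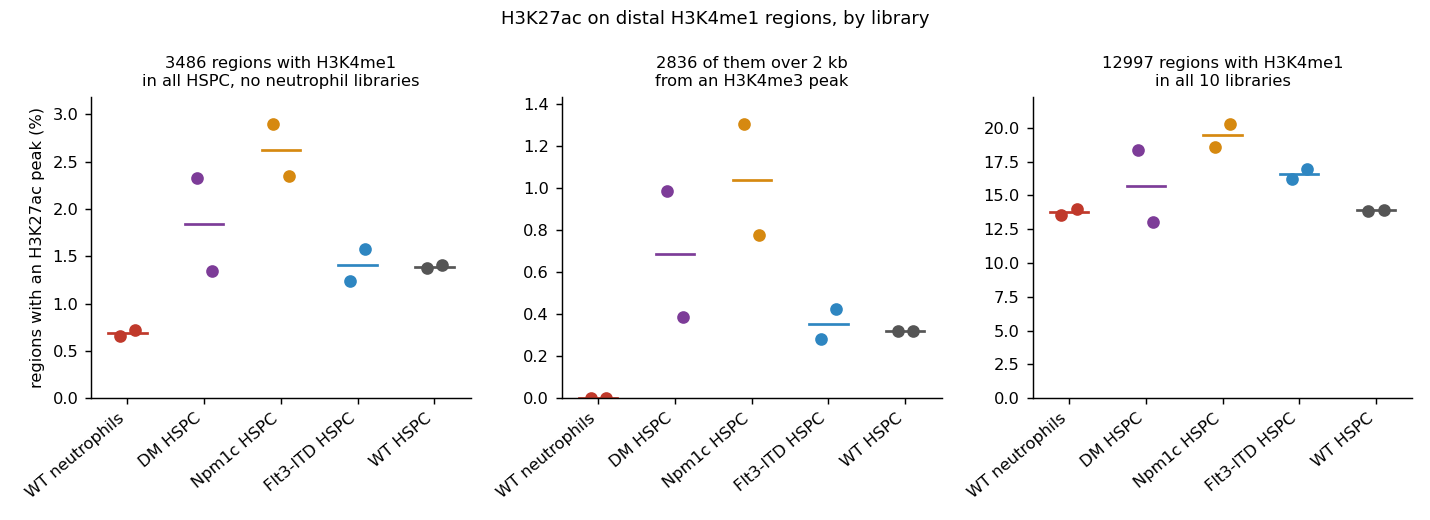
Percentage of regions with an H3K27ac peak (y axis) in each library (points; bars are means of 2) for the HSPC-only regions, those over 2 kb from H3K4me3, and the regions marked in all 10 libraries. Neutrophil points are the lowest in the left and middle panels and at 0 in the middle one; in the right panel they lie within the HSPC range.

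Sequence could be shown where a window around a RefSeq start (GRCm38.p6, the assembly of mm10) overlapped an HSPC-only region. Windows of 250 bases before to 50 after the start overlapped 77 of the regions, and those of protein-coding genes overlapped 31. The whole window lay inside 22 regions, of which 1 was acetylated in any library. Of their 22 genes, 12 had H3K4me3 over the gene span or within 5 kb in every HSPC library, and 7 had none there in any library. They included Il9r, a cytokine receptor chain, C1qc of complement, P2rx7, an ATP-gated channel, and Kcnj1, a potassium channel. Only part of the window lay inside the other 9, of which 6 were acetylated. A pair from each set, picked after their values were seen, is printed 5′ to 3′. Capitals mark the core motifs searched on both strands: GATAA or TTATC for GATA factors, TGTGGT or ACCACA for RUNX, and CAGGAAG or CTTCCTG for ETS.
Il9r, chr11:32200230-32200529, minus strand: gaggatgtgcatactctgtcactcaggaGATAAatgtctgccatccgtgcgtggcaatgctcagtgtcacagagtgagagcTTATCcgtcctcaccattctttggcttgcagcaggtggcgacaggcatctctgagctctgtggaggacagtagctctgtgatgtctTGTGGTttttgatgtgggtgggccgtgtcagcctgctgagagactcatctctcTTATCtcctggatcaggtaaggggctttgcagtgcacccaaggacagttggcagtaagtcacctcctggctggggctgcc
Blvrb, chr7:27452168-27452467, plus strand: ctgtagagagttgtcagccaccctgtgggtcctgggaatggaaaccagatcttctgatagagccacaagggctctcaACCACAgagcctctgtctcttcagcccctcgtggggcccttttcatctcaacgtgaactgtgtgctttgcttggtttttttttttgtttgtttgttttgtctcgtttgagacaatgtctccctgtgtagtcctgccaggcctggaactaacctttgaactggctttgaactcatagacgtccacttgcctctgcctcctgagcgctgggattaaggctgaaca
Ybx3, chr6:131388401-131388700, minus strand: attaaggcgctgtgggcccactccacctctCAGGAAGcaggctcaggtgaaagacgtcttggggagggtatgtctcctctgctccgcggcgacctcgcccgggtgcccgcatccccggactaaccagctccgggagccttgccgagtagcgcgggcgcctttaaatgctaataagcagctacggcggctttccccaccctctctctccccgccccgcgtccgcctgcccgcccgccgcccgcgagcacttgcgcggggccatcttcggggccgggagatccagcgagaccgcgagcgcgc
Def6, chr17:28207528-28207827, plus strand: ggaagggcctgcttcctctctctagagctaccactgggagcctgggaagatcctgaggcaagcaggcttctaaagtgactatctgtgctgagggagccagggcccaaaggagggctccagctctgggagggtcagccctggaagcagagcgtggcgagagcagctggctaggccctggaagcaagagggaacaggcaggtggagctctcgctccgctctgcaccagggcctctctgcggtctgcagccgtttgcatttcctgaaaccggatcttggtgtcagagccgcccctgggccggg

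The Il9r window held 3 GATA matches and 1 RUNX match, and no library had H3K27ac on its region. Blvrb, a heme-pathway reductase of red cells, had 1 RUNX match and no H3K27ac on its region. Over all 35 windows of protein-coding genes that touched an HSPC-only region, the GATA letters occurred in 28.6%, the RUNX letters in 31.4% and the ETS letters in 28.6%. Among 21262 protein-coding windows the shares were 22.5%, 14.97% and 12.5%. A match is a description of letters, not a bound site. Windows wholly inside a region had a median G and C content of 51.7%, those partly inside 61.5%, and all protein-coding windows 56.3%.

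The Ybx3 region (chr6:131388503-131389887) held 198 bases of its window and lay 0.11 kb from an H3K4me3 peak. Ybx3 encodes a Y-box nucleic acid binding protein. H3K27ac covered 0 and 0 bp of it in neutrophils, 337 and 246 bp in DM, 566 and 484 bp in Npm1c, 363 and 456 bp in Flt3-ITD, and 391 and 243 bp in WT HSPC. It was 1 of 3 regions acetylated in all 8 HSPC libraries and in no neutrophil library, with those at Ccdc9 and beside Wwc2. The Def6 region (chr17:28206472-28207808), at the gene of a regulator of lymphocyte signalling, kept H3K27ac in neutrophils: 972 and 950 bp, against 680 to 960 bp in the 8 HSPC libraries. It was 1 of 11 acetylated in all 10 libraries.

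Region by region, more HSPC-only regions lost H3K27ac in neutrophils than gained it. Present in neither neutrophil library and in both WT HSPC libraries counted as lost, and the reverse as gained. Of the 3486 regions 27 (0.775%) had lost H3K27ac, against 0.491% of all distal regions, and 6 (0.172%) had gained it, against 0.645%. Of the 3486, 98 had H3K27ac in at least 2 libraries and entered limma, fitted over 4790 distal regions on log2(bp + 500). A region can enter only through the group where it is high, so these calls describe those regions. At a Benjamini-Hochberg adjusted p below 0.05, 19 of the 98 were lower in neutrophils (19.4%; background 14.6% of all tested) and 9 higher (9.18%; background 17.8%). The other 70 were not called, and the median log2 difference was 0 for the 98 and for all 4790 tested. Without any 1 library of either group fewer of the 98 were called, with more of them lower than higher. A smaller share of all regions tested was then called as well.

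The 5 largest falls in neutrophils had no H3K27ac in either neutrophil library. At Ccdc9 (chr7:16275200-16276764) the WT HSPC libraries had 1565 and 1150 bp (adjusted p = 0.00119, limma). At Samd14 (chr11:95011449-95013455), whose product aids Kit signalling in erythroid progenitors, they had 1101 and 1165 bp (adjusted p = 0.000933, limma). The other 3 lay in Ip6k3, an inositol phosphate kinase gene, in Nol4l, and 45.1 kb from Syf2, a splicing factor gene. The Nol4l and Syf2 calls were lost without any 1 of the 4 libraries compared, and the Ip6k3 call without any 1 of 3 of them.

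The 5 largest rises all lay within 0.57 kb of an H3K4me3 peak. E2f2, a cell cycle regulator, had 1304 and 1383 bp in neutrophils, none in the 6 mutant libraries, and 272 and 334 bp in WT HSPC (chr4:136173793-136175566; log2 difference 1.20 ± 0.0740 SE, limma adjusted p = 3.15e-05). Sirpa, the receptor for the CD47 signal on myeloid cells, had 1029 and 1083 bp in neutrophils against 0 and 207 bp in WT HSPC (chr2:129595216-129596318; log2 1.39 ± 0.262 SE, adjusted p = 0.00733, limma). Without either neutrophil library the Sirpa call was lost. Slc17a9, a vesicular ATP transporter gene, had 1316 and 972 bp in neutrophils, and Gsr, the glutathione reductase gene, 1122 and 687 bp. WT HSPC had 0 bp at both. The rise at Maml1, a Notch coactivator gene, was lost under 5 other settings and without any 1 of the 4 libraries compared.

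Like neutrophils, the mutant HSPC differed from WT HSPC in H3K27ac on few of these regions. The share acetylated was 1.84 ± 0.690% in DM, 2.62 ± 0.385% in Npm1c and 1.41 ± 0.243% in Flt3-ITD, against 1.39 ± 0.0203% in WT (SD, n = 2 each). Both Npm1c libraries lay above both WT libraries, as they did on regions marked in all 10 libraries (18.6% and 20.3% in Npm1c, 13.8% and 13.9% in WT). They also had the longest H3K27ac lists; with lists of equal length the difference from WT was 0.516 points, and with the full lists 1.23. The design limits this, since 2 against 2 libraries cannot reach an exact permutation p below 0.333, the value for Npm1c (1 for DM and Flt3-ITD). H3K27ac was gained on 21 regions in DM (0.602%; all distal 0.321%), 16 in Npm1c (0.459%; 0.514%) and 7 in Flt3-ITD (0.201%; 0.232%). It was lost on 21 in DM (0.602%; 0.292%), 1 in Npm1c (0.0287%; 0.00724%) and 9 in Flt3-ITD (0.258%; 0.123%). In limma 13 of the 98 regions rose in DM (13.3%; background 7.6%) and 10 fell (10.2%; background 5.57%). In Npm1c 14 rose (14.3%; background 16.6%) and 1 fell (1.02%; background 0.188%). In Flt3-ITD 1 rose (1.02%; background 2.86%) and 5 fell (5.10%; background 1.57%). Without either WT library fewer of the 98 were called in DM and in Flt3-ITD, as was a smaller share of all regions tested. In Npm1c more were called without Npm1c replicate 1 and fewer without WT replicate 2. The share of all regions called moved the same way. These comparisons share their WT libraries.

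The Npm1c rises were led by a region in Ifngr1, a chain of the interferon-gamma receptor (chr10:19593655-19595087). It had 964 and 1031 bp of H3K27ac in Npm1c and 286 and 326 bp in neutrophils, with none in the other 6 libraries (limma adjusted p = 3.26e-05 for Npm1c against WT). A region whose nearest gene span, Arid1b, lay 612 kb away had 1141 and 505 bp in Npm1c and none elsewhere (chr17:4378943-4382368; adjusted p = 0.00629, limma). At Klf3, which overlaps a clone-named gene there and is a repressor active in red cell and B cell development, the region had 1445 and 1737 bp in Npm1c against 370 and 372 bp in WT HSPC (chr5:64805143-64807335; log2 1.26 ± 0.205 SE, adjusted p = 0.00855, limma). That call was lost without any 1 of 3 libraries. The 1 fall was the E2f2 region.

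In DM the leading rises included regions beside Ly6g6g and Lgals1, the galectin-1 gene, and in Ptcd2 and Pik3ip1, whose product restrains PI3-kinase. Ptcd2 had 640 and 356 bp in DM and none in the other 8 libraries (chr13:99323230-99324634; adjusted p = 0.00323, limma). At Pik3ip1 there were 449 and 460 bp in DM, 374 and 200 bp in Flt3-ITD, and 0 bp in WT HSPC. The Lgals1, Pik3ip1 and Ly6g6g calls were lost without either WT library and without DM replicate 1. Among the falls, Samd14 had 0 bp in both DM libraries, 1297 and 1027 bp in Npm1c, 200 and 618 bp in Flt3-ITD and, as above, over 1000 bp in both WT libraries (adjusted p = 0.00292, limma). A region 211 kb from the nearest gene span had 0 bp in both DM libraries against 858 and 750 bp in WT (chr5:64589549-64590895; adjusted p = 0.000276, limma). The 6 erythroid marker genes moved with these falls: their summed H3K27ac was 2.55 and 2.05 kb in DM, 46.9 and 33.3 kb in Npm1c, 15.5 and 23.1 kb in Flt3-ITD, and 30.7 and 29.8 kb in WT. Their part in the result was not tested.

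In Flt3-ITD the falls included regions in Prodh, the proline dehydrogenase gene, and Fbxw4. Prodh had 0 and 0 bp in Flt3-ITD, 526 and 860 bp in Npm1c, and 548 and 537 bp in WT HSPC (chr16:18073314-18076745; adjusted p = 0.00941, limma). Without either WT library this call was lost. Fbxw4 had 0 and 0 bp in Flt3-ITD against 363 and 473 bp in WT HSPC (adjusted p = 0.00442, limma). The 1 rise, in the neuronal vesicle gene Nsg2, was 225 and 202 bp in Flt3-ITD and 0 bp in the other 8 libraries. These values are near 200 bp, the narrowest H3K27ac peak. The call rests on almost no spread: with only features of standard error at least 0.05 kept, 0 rises were called.

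**Figure D3:**
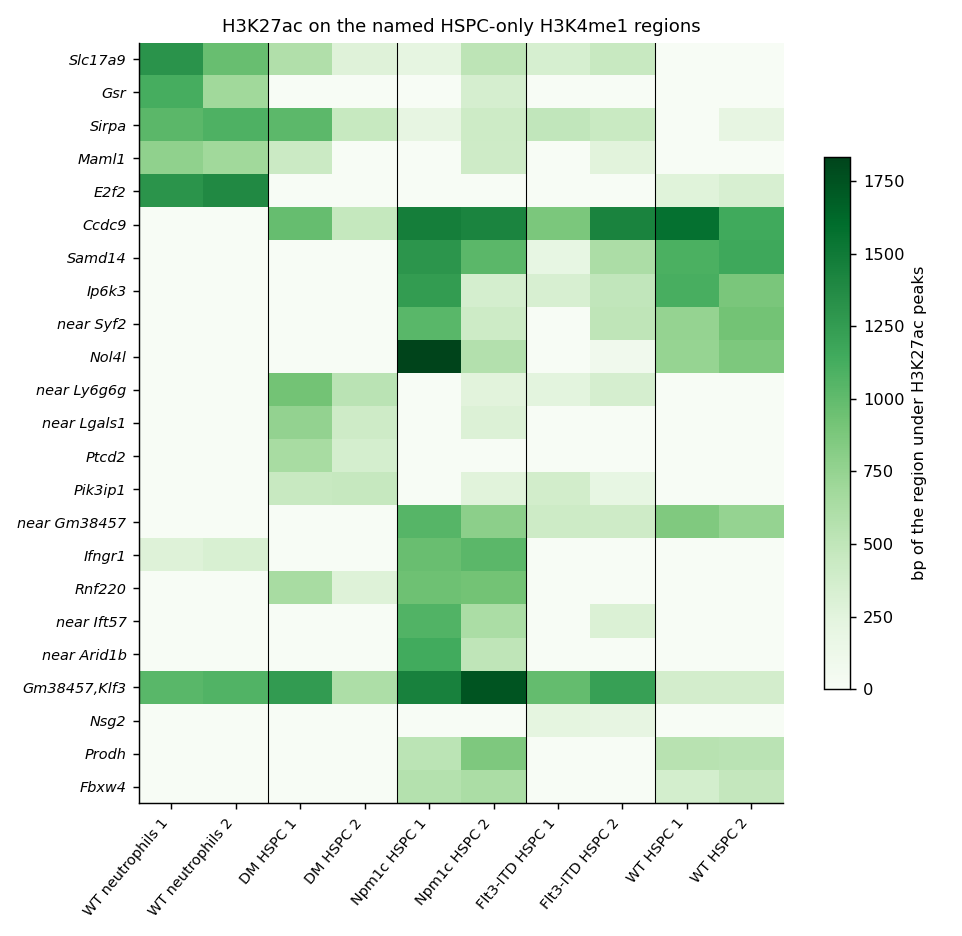
Heat map of the base pairs of HSPC-only regions under H3K27ac peaks (colour) in the 10 libraries (columns), labelled by the overlapping or nearest gene (some regions left out). E2f2 is covered in neutrophils (1304 and 1383 bp) and not in the mutant HSPC, and Samd14 in neither neutrophil nor DM libraries.

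Some HSPC-only regions stood in groups. With gaps of up to 50 kb joined, they formed 2546 groups, of which 1959 were single regions and 206 had at least 3. The largest had 17 regions over 273 kb (chr13:28663905-28936528) in a stretch with no protein-coding gene, 12.4 to 283 kb from Sox4 (chr13:28948919-28953699), a transcription factor gene of progenitors and lymphoid cells. The span held 11 and 15 kb of H3K4me1 in neutrophils and 50 to 62 kb in HSPC, so neutrophils kept part of the marking between these regions. None of the 17 was acetylated in any library. Elsewhere in the span H3K27ac covered 3.03 and 1.21 kb in DM, 0.760 and 2.16 kb in Npm1c and 2.88 and 1.97 kb in Flt3-ITD. It covered 0 kb in both neutrophil and both WT HSPC libraries, so each mutant library was above all 4 libraries of WT mice there. Groups of 8 lay in Prkca, Bcl2 and Rere.

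**Figure D4:**
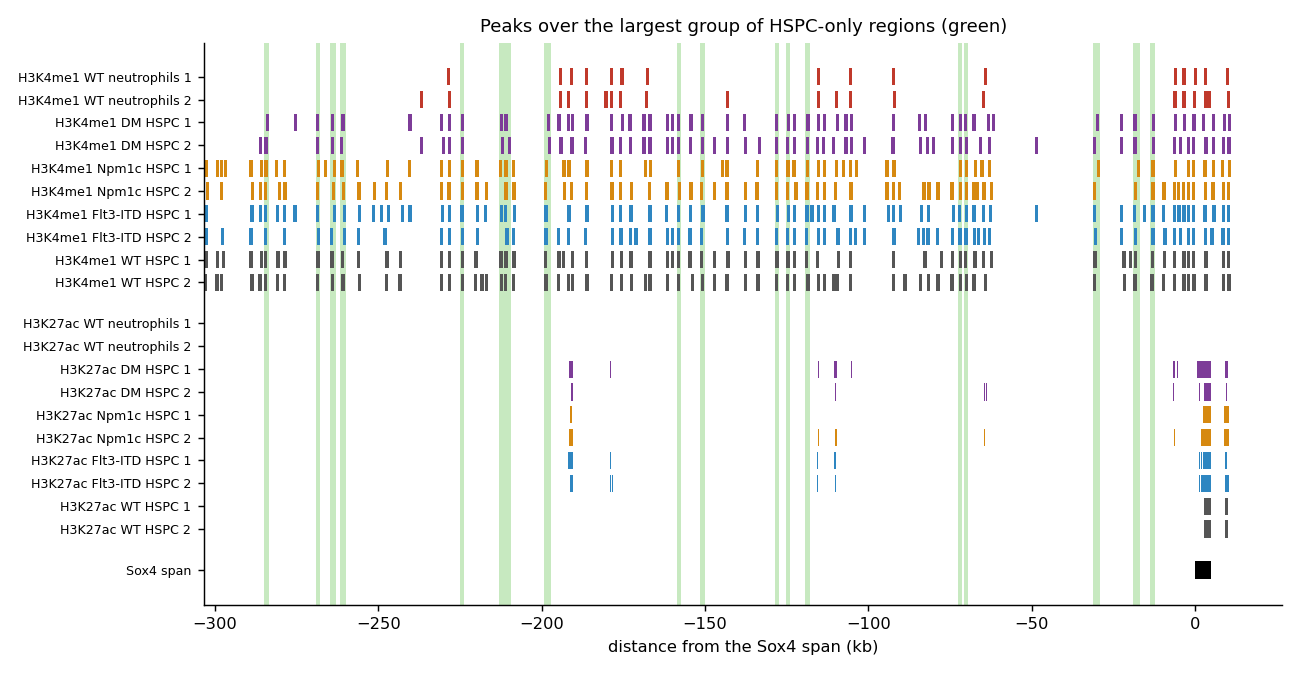
Map of H3K4me1 and H3K27ac peaks (bars, 1 row per library) by distance from the Sox4 span (x axis, kb); green bands are the HSPC-only regions. Neutrophil rows have H3K4me1 between the bands and no H3K27ac, while the mutant HSPC rows have H3K27ac between the bands and at Sox4, and WT HSPC rows at Sox4.

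By gene, 1968 of 21883 protein-coding genes (8.99%) had an HSPC-only region in the span or within 10 kb, and 152 had at least 3. These 152 are long, with a median span of 196 kb against 17.2 kb for all genes. Mllt3, a reader of acylated histones that supports stem cell self-renewal, and Prkca, protein kinase C alpha, had 10 each. Bcl2, the survival factor, had 8, as did Rere, a transcriptional corepressor, Dnm3, a dynamin of megakaryocytes, and Psd3, an exchange factor for ARF6. Stem and progenitor genes had them most often among the lists: 12 of 21 genes (57.1%), led by Angpt1 with 6, Meis1 with 5, and Runx1, Msi2 and Mecom with 3. The list's median span of 54.4 kb is also above that of all genes. Dendritic cell genes followed with 5 of 13, erythroid genes with 5 of 19 and chromatin regulators with 4 of 16. Of 20 mature neutrophil genes, 12 housekeeping genes and 12 genes of other tissues, 0 had one, and the neutrophil list has a median span of 6.92 kb.

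Genes with at least 3 HSPC-only regions tended to have less H3K27ac over the whole gene in neutrophils. For each library H3K27ac was summed over the gene span plus 10 kb at either end. Of the 152 genes 136 had it in at least 2 libraries and were tested among 13633. Against WT HSPC, 51 were lower in neutrophils (37.5%; background 23.2%) and 8 higher (5.88%; background 13.2%), with 77 not called (limma, adjusted p below 0.05). Their median log2 difference was -0.52, against -0.12 over all genes tested. These genes are long and the background was not matched for length. The part of gene length in the difference was not tested. Leaving out 1 library left 29 to 35 lower calls, with 17.7% to 19.2% of all genes then called in either direction. Centred on the median of the genes with H3K27ac in every group, 55 were lower and 13 higher. Of all genes tested 41.6% were then called in either direction, against 36.4% without centring.

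Angpt1, a ligand of the Tie2 receptor that keeps stem cells quiet (chr15:42424667-42676977), had 0 and 0 kb of H3K27ac in neutrophils. It had 0.701 and 0.567 kb in DM, 5.82 and 6.23 kb in Npm1c, 2.50 and 2.65 kb in Flt3-ITD, and 4.06 and 2.46 kb in WT HSPC. Neutrophils were below every HSPC library (adjusted p = 9.22e-05 against WT, limma). Tns1, an adhesion protein gene, had 0 and 0 kb in neutrophils against 2.29 and 2.35 kb in WT HSPC (adjusted p = 0.00017, limma). Mllt3 had 0 and 0 kb in neutrophils, 0.297 and 0.205 kb in DM, 8.01 and 6.18 kb in Npm1c, 1.07 and 2.67 kb in Flt3-ITD, and 1.93 and 1.70 kb in WT (adjusted p = 0.00168 for neutrophils against WT, limma). The Npm1c libraries were the highest at Mllt3 and Angpt1.

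Msi2, an RNA-binding regulator of stem cells, had 1.54 and 0.994 kb in neutrophils against 5.93 and 6.54 kb in WT HSPC (log2 -1.95 ± 0.212 SE, adjusted p = 0.000729, limma). Gse1, a corepressor subunit, had 5.62 and 5.75 kb in neutrophils against 24.1 and 23.7 kb in WT HSPC (log2 -1.98 ± 0.368 SE, adjusted p = 0.00564, limma); this call was lost without either 1 of the neutrophil libraries. Meis1, a HOX cofactor, had 0 and 0 kb in neutrophils and 0.263 and 0.709 kb in WT HSPC, which did not pass (adjusted p = 0.0607, limma). Its Npm1c libraries had 7.47 and 10.7 kb. Bcl2 had 1.15 and 1.22 kb in neutrophils and 0.977 and 1.23 kb in WT HSPC, groups that overlapped (adjusted p = 0.958, limma), with 9.47 and 4.08 kb in DM. Runx1, a transcription factor of stem cell emergence, had 13.2 and 12.5 kb in neutrophils and 8.52 and 8.23 kb in WT HSPC, short of the threshold (log2 0.59 ± 0.284 SE, adjusted p = 0.146, limma). Dnm3 went up, with 1.11 and 1.12 kb in neutrophils and 0 kb in both WT HSPC libraries (adjusted p = 0.00786, limma); this call was lost without either neutrophil library.

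Among the other genes with most HSPC-only regions, Srgap3 encodes a GTPase-activating protein for Rac. It had 0 and 0 kb of H3K27ac in neutrophils and 1.43 to 3.02 kb in the 6 mutant libraries. WT HSPC had 0.609 and 0.910 kb there (adjusted p = 0.00206 for neutrophils against WT, limma). Psd3 had 0.533 and 0.511 kb in neutrophils against 1.37 and 1.80 kb in WT HSPC (log2 -1.02 ± 0.187 SE, adjusted p = 0.00527, limma), a call lost without neutrophil replicate 2. Prkca had 0 kb in neutrophils and in WT HSPC and at most 1.21 kb in any library, so its 10 marked regions went with almost no acetylation. Rere had 5.66 and 5.55 kb in neutrophils and 4.87 and 5.00 kb in WT HSPC, short of the threshold (adjusted p = 0.583, limma). Of the widest 5 HSPC-only regions, 5187 to 5513 bp, in Rnf150, Camk1d, Snd1 and Srgap3 and beside Stt3b, 0 were acetylated in any library.

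**Figure D5:**
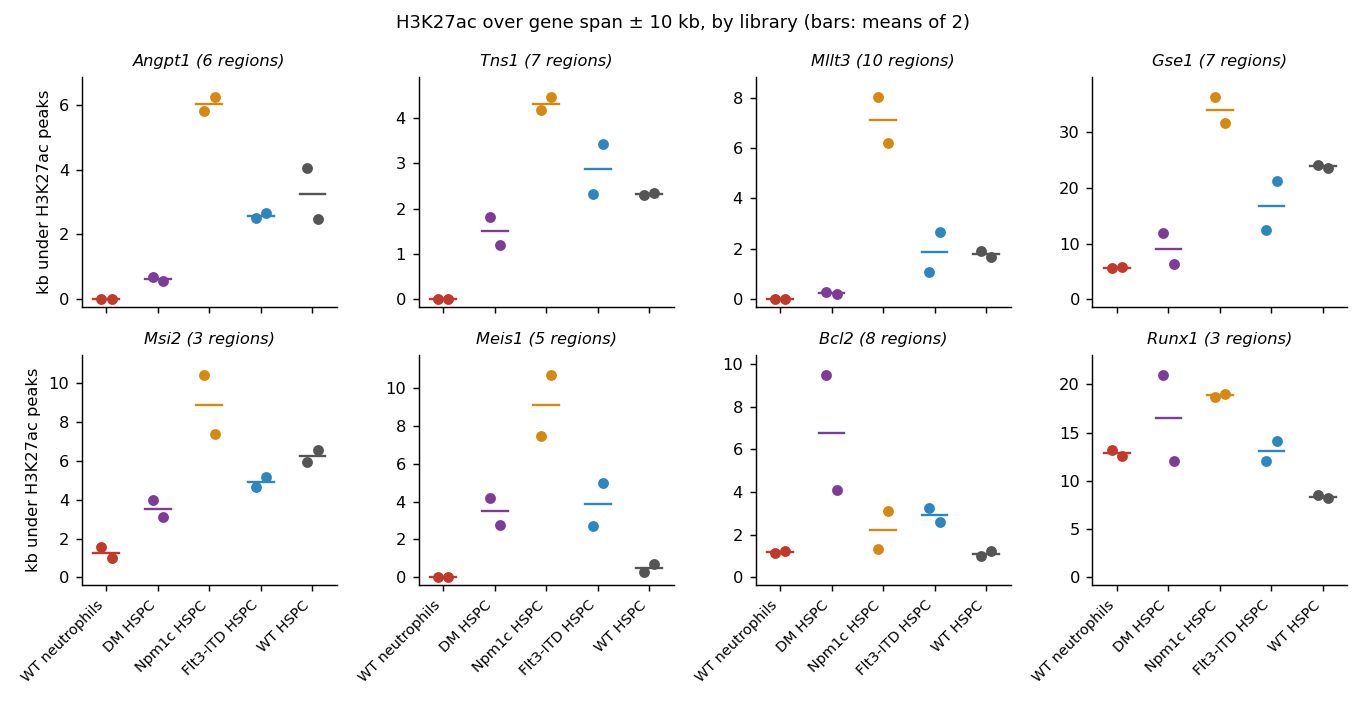
Kilobases under H3K27ac peaks over the gene span and 10 kb each side (y axis) for 8 genes with HSPC-only regions; points are libraries and bars means of 2. Angpt1, Tns1, Mllt3 and Meis1 are at 0 in neutrophils, while Bcl2 and Runx1 have H3K27ac there.

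Over the fixed lists, whole-gene H3K27ac was lower in neutrophils at 10 of 20 tested stem and progenitor genes and higher at 2. It was lower at 16 of 19 erythroid genes and higher at none, and lower at none and higher at 17 of 19 mature neutrophil genes. The median log2 differences were -0.49, -2.30 and 2.12, against -0.12 over all genes. Of all genes tested 23.2% were lower and 13.2% higher, and none of the listed mature neutrophil genes had an HSPC-only region. Dendritic cell genes were lower at 3 of 11 and higher at none, megakaryocyte genes lower at 4 of 13 and higher at 4. B-lymphoid genes were lower at none of 9 and higher at 1. Cell cycle genes were lower at 8 of 15 and higher at none. HOX and cofactor genes were lower at 7 of 15 and higher at 1. The erythroid genes that also had an HSPC-only region included Zfpm1, the GATA1 cofactor, with 0.294 and 0.218 kb in neutrophils against 12.6 and 13.4 kb in WT HSPC (log2 -4.16 ± 0.408 SE, adjusted p = 0.000472, limma). Aqp1, a water channel gene, had 0 and 0 kb in neutrophils and in DM against 5.15 and 5.53 kb in WT HSPC (adjusted p = 3.65e-05 for neutrophils against WT, limma). Of the 21 STAT5 and MAPK feedback genes 5 were lower, 2 higher and 14 not called, with a median log2 difference of 0. Among the lower, Ccnd2, cyclin D2, had 0 and 0 kb in neutrophils against 1.85 and 1.65 kb in WT HSPC (adjusted p = 7.88e-05, limma).

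H3K4me3 over the gene span and 5 kb each side moved the same way at some of these genes. Of 151 tested, 33 were lower in neutrophils (21.9%; background 9.87%) and 3 higher (1.99%; background 6.72%). This background was not matched for gene length either. Nearly all H3K4me3 peaks are 1000 bp wide (the narrowest 725 bp), so most genes whose replicates hold equal peak numbers have almost no spread. Such genes, with a standard error below 0.05, made up 54.2% of all calls and 4 of these 36. Angpt1 had 1 and 1 kb in neutrophils against 7 and 6 kb in WT HSPC (log2 -2.22 ± 0.0948 SE, adjusted p = 1.61e-05, limma). Mllt3 had 1 and 1 kb in neutrophils against 5 and 4 kb in WT HSPC (log2 -1.73 ± 0.169 SE, adjusted p = 0.00108, limma). Runx1 had 13 and 13 kb in neutrophils and in WT HSPC. Leaving out 1 library of either group left fewer calls. The share of these genes called in either direction was then near that of all genes.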

How the data were processed

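Of 35 samples, 30 libraries with a peak list were read, 2 per group for each of H3K4me1, H3K4me3 and H3K27ac. The other 5, inputs, entered no step. The submitters' processing notes name Bowtie2 2.1.0, Picard, HOMER, MACS2 and the build mm10. The names of the deposited files credit the H3K4me1 and H3K4me3 lists to HOMER and the H3K27ac lists to MACS2; no source used here gives their settings. The deposited unit is other: peak coordinates (chromosome, start, end), with no score, so depth is unknown and no interval on it can be given. Lists held 102927 to 131205 H3K4me1, 30310 to 39320 H3K4me3 and 21709 to 30150 H3K27ac peaks. HOMER peaks are 1000 bp wide, apart from a few of 725 bp or more.

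The regions and gene lists were chosen with earlier results of these data known. Peaks sharing or touching bases were merged, and a mark was present when a peak overlapped by 1 bp or more. Gene spans came from RefSeq GRCm38.p6 (21883 protein-coding genes, no strand). Promoter windows came from a RefSeq table covering 79.9% of them. Shares were compared by two-sided exact permutation over libraries. Base pairs under peaks were fitted as log2(bp + 500) by limma 3.58.1 (R 4.3.3; eBayes with trend; all 5 groups, no scaling) for features covered in at least 2 of 10 libraries, with Benjamini-Hochberg adjustment over all features. Where a group had 0 bp no fold is given. The fit was first run on simulated data of known answers. Its noise was normal with a lower limit on the spread, so it did not cover features with almost no spread. Named genes were the 15 with most regions, up to 4 per list, and per comparison the 5 largest rises and falls among called regions whose single-library differences shared a sign; some are not reported here. Names given as beside a region are nearest gene spans. Python 3.11.15, NumPy 2.4.6, pandas 2.3.3 and matplotlib 3.10.9 were used. Replicate numbers come from the labels, which do not say that they pair groups. Alternatives were overlap, extension, equal list lengths, pseudocount, filter, centring, replicate block, robust variance and leaving out each library.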

Additional observations from a re-analysis of the deposited data

How the results depend on the processing

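The number of HSPC-only regions was 3196 to 4040 under other merging and H3K4me3 rules, and 3560 to 4873 without 1 library. Their H3K27ac share in neutrophils minus HSPC was -1.51 points with regions extended by 500 bp and -0.868 with lists of equal length, both with exact permutation p = 0.0222, and -1.21 to -0.971 without 1 library. Set against other distal regions the difference was -1.06 to -0.955 and against regions in all 10 libraries (log2 ratio) -1.16 to -1.02 without 1 library. The DM share minus WT was -0.0430 to 0.932 points without 1 library, turning negative without DM replicate 1. Flt3-ITD minus WT was -0.158 to 0.186 without 1 library, negative without Flt3-ITD replicate 2, and -0.143 with lists of equal length; Npm1c minus WT was 0.961 to 1.51. Without 1 library, called regions were 15 to 20 for neutrophils, 10 to 26 for DM, 10 to 25 for Npm1c and 3 to 7 for Flt3-ITD (28, 23, 15 and 6 with all). Called genes were 31 to 39 for H3K27ac and 17 to 22 for H3K4me3 (59 and 36 with all). A lone sample was then assumed to vary like the other groups, and the share of all features called moved as well. The cause of these shifts was not tested, beyond the smaller number of libraries.

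Replicate numbers do not show pairing: the correlation of same-numbered deviations was -0.157 to 0.229 over 10 pairs of groups, with 2 numbers only. With replicate number as a block, calls among the 98 regions were 26 for neutrophils, 17 for DM, 14 for Npm1c and 5 for Flt3-ITD. Of all regions tested 31.0%, 11.6%, 14.6% and 3.55% were then called. For genes the calls were 55 of 136 for H3K27ac and 29 of 151 for H3K4me3, against 33.3% and 15.2% of all genes.

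Of 464 values of named features without 1 library, 344 kept direction and call and 114 lost the call; of 877 under other settings, 834 kept both and 26 lost the call. Signs turned, none of them in a called value, for Bcl2 H3K27ac (-0.0405 to 0.188 without 1 library), Epb41l4b H3K27ac (-0.0724 to 0.573, and -0.0423 with equal lists), Itgb3 H3K4me3 (-0.103 to 0.344), Hdac9 H3K4me3 (-0.618 to 0.0101) and Ccnd2 H3K4me3 (0.0896 over the span alone). Peak lists without scores limit all of this: a level below the caller's threshold reads as 0, and depth is unknown. With 2 libraries a group, shares between HSPC genotypes cannot pass a permutation test.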
